A study of Mus musculus with 6 samples.

Results

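The loci described here are 129 mouse genes that were assigned several chromatin peaks specific to microglia without miR-137 and none specific to control microglia. A control-specific peak that was assigned to another gene, or to none, can still lie in or near such a gene. They were chosen by a rule applied to the 2 lists of genotype-specific peaks. A peak belonged, by its midpoint, to the protein-coding gene whose end was nearest, within 100 kb, and a gene was taken when it had 4 or more peaks of the knockout list and 0 of the control list. The rule was met by 129 of 21887 coding genes (0.589%), and these loci hold 584 of the 8615 peaks of the knockout list (6.78%); both lists together hold 12105 peaks. The peak counts in both lists chose the members, so the counts are given as a description and nothing is read from them. A peak near a gene is not shown to act on it.

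The study examined microglia, sorted from brain tissue of 8 weeks old mice of the strain C57BL/6J, by ATAC-seq, an assay in which a transposase cuts accessible DNA. The knockout group, labelled cKO, had the genotype Mir137loxP/loxP;Tmem119-CreERT2, and the control group, labelled cWT, had Mir137+/+;Tmem119-CreERT2. Both groups therefore carried the tamoxifen-inducible recombinase driven from Tmem119, a gene of microglia, and tamoxifen was injected on 7 consecutive days at 7 to 8 weeks of age. There were 3 libraries per genotype, from about 50000 cells, and 4 mice are stated without saying which library came from which mouse. The question named for the assay was which transcription factors are most active once miR-137 is lost. The deposited lists give 1 value per peak and no value per library, so the spread between replicates and the sequencing depth are unknown, and intervals given below cover counting error only. The sources used here do not say how the specific peaks were called, and a larger number of peaks in 1 genotype cannot be told apart from deeper or cleaner libraries of it. In bulk libraries, more cells with an open region and more opening per cell also cannot be told apart.

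Microglia are the macrophages that live in the brain, where they survey the tissue, engulf debris and respond to cytokines. Accessible chromatin away from gene starts often marks enhancers, and a gene that is strongly used by a cell can have several of them spread over its introns and flanks. A microRNA guides an Argonaute protein to target RNAs through pairing with its seed, the bases near its 5′ end, and the title of the study places this microRNA in the nucleus.

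The sequences that frame these loci are the microRNA that was deleted and the gene starts that a cKO-specific peak covered. The first line is the mature strand of miR-137 that is named 3p, from chr3:118433901-118433923 on the plus strand (GRCm38.p6), with its seed, bases 2 to 8, in capitals. RefSeq promoters of 300 bases, 250 before and 50 after a start, were found by symbol for 99 of the 129 genes, 140 promoters in all, and 11 promoters of 11 genes were touched by a peak of their own locus. The 6 lines after it are from that set, 5′ to 3′ on the strand of the gene and GRCm38.p6, and capitals mark the bases inside a cKO-specific peak. Pik3ap1 (chr19:41385053-41385352, minus strand), Ly75 (chr2:60383224-60383523, minus), Rcc2 (chr4:140701223-140701522, plus) and Irf2bp2 (chr8:126593937-126594236, minus) are shown because the start is the outermost one of the gene. Kif3b (chr2:153291166-153291465, plus) begins 21 bp from the outermost start. Pld1 (chr3:27983921-27984220, plus) is shown as a start inside a gene, 45712 bp from the outermost one, that lay wholly within a peak.
mmu-miR-137-3p: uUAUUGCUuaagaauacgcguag
Pik3ap1: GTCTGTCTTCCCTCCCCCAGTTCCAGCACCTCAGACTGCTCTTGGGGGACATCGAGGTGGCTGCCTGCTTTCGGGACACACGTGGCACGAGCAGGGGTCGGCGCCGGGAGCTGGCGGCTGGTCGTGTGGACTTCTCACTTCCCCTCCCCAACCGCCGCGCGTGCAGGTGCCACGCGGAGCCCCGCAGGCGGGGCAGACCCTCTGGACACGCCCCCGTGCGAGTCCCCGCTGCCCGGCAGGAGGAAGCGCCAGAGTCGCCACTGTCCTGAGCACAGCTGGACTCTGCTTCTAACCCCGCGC
Ly75: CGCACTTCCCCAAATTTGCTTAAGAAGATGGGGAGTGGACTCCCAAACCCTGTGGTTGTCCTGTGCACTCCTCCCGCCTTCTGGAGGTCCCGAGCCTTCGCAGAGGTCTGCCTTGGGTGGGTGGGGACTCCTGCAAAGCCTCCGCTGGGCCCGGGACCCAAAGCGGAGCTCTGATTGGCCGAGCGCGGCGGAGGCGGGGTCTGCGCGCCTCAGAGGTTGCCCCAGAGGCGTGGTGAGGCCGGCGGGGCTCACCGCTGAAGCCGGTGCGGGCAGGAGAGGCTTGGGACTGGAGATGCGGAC
Rcc2: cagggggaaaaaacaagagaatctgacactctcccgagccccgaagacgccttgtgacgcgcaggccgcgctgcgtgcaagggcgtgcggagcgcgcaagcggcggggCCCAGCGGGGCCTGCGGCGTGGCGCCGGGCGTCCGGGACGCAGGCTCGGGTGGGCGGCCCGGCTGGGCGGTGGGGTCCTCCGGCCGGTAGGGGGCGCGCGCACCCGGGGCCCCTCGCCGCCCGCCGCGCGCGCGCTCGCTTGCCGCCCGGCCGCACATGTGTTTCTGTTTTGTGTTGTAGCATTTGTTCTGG
Irf2bp2: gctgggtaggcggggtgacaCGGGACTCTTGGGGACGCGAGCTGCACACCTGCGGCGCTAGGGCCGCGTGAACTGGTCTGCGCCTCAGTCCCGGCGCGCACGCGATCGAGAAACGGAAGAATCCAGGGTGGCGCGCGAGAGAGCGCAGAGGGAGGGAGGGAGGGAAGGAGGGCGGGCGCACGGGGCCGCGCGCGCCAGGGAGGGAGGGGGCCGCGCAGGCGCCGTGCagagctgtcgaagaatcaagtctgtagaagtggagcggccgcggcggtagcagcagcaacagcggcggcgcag
Kif3b: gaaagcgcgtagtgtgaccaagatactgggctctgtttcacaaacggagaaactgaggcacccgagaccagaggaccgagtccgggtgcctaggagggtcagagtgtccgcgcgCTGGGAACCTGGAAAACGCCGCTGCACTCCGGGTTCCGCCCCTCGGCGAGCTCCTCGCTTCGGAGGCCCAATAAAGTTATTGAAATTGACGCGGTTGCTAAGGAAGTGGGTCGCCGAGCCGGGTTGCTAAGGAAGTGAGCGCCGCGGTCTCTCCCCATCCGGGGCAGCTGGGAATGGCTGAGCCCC
Pld1: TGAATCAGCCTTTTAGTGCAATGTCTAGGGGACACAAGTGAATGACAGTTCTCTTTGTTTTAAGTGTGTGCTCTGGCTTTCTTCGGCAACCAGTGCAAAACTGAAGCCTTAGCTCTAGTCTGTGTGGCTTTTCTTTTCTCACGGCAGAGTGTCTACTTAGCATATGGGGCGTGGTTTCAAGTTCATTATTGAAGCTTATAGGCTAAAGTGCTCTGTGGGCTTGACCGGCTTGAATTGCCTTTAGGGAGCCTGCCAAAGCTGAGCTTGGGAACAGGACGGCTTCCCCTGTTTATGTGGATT

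The peak covered all 300 bases at Pik3ap1, Ly75 and Pld1, 207 at Irf2bp2, 192 at Rcc2 and 186 at Kif3b. The other covered starts were those of Tbc1d22a, covered over all 300 bases and 63264 bp inside the gene, Dusp16 (277 bases covered), Mxi1 (245), Ube2h (226) and Ube2e1 (157). Letters of 8 motifs were searched on both strands of all 32851 promoters in the table, and a match is a description of letters, not a binding site. CACGTG, an E-box, was found in 1 of the 11 covered promoters, at position 79 of Pik3ap1, and in 7.15% of all promoters. TGANTCA, the AP-1 letters, was found in 1, at position 1 of Pld1, against 7.81% of all, and TGTGGT, the RUNX letters, in 1, at position 51 of Ly75, against 16.8%. GGAA, the core of ETS sites, was in 10 of the 11 and in 96.0% of all promoters, and CCCTC, part of CTCF sites, was in 7 and in 66.0% of all. These counts take in all 300 bases of a promoter, also those outside a peak. The only GGAA of Rcc2, at position 6, lay outside the cKO-specific peak. The longer PU.1 letters GAGGAAGT were in 0 of the 11 and in 3.2% of all promoters. The MEF2 motif and a short interferon-response motif were in 0 of the 11 as well, and in 3.69% and 3.44% of all promoters. GGAA is contained in GAGGAAGT, so these are not separate searches.

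Most loci met the rule at its lowest count. Of the 129 genes, 87 had 4 cKO-specific peaks, 28 had 5, 8 had 6 and 3 had 7, with 1 gene each at 8, 9 and 10. Of the 285 coding genes with 4 or more cKO-specific peaks, 129 (45.3%) had no cWT-specific peak. Just outside the rule, 229 genes had 3 peaks of the cKO list and 0 of the cWT list, 87 had 4 or more and 1, and 69 had 4 or more and at least 2. Those kept out by a single cWT-specific peak were led by Aff1 and Cdk6, with 8 cKO-specific peaks each, followed by Bcor, Foxn3, Irf2, Rptor, Runx1, Sipa1l2 and Zfp516 with 7 each. The mirror rule, 4 or more cWT-specific peaks and 0 cKO-specific ones, was met by 4 of 21887 genes (0.0183%), Cped1, Foxp1, Pex13 and Smyd3, with 16 peaks from a list of 3490. The lists differ in length, so these counts are not comparable as a balance of the genotypes.

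The share of genes without a cWT-specific peak is given for each number of cKO-specific peaks, and no trend is read from it, since the rule used both counts. It was 79.8% of 3136 genes with 1 cKO-specific peak, 68.3% of 1105 with 2 and 58.3% of 393 with 3. It was 56.1% of 155 genes with 4, 37.8% of 74 with 5, 25.8% of 31 with 6 and 23.1% of 13 with 7. Above that it was 16.7% of 6 genes with 8, 33.3% of 3 with 9 and 50% of 2 with 10.

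**Figure D1:**
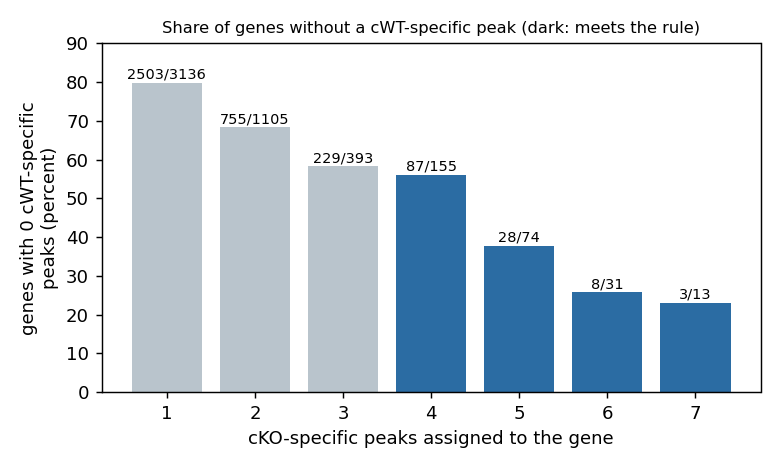
Percent of coding genes with 0 cWT-specific peaks (vertical axis) by the number of cKO-specific peaks assigned to the gene (horizontal axis), with the number of genes above each bar and the bars that meet the rule in dark blue. The bars run from 79.8% at 1 peak to 23.1% at 7 peaks; genes with 8, 9 and 10 peaks, at 16.7%, 33.3% and 50% of 6, 3 and 2 genes, are not drawn.

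The member genes were long. Their median length was 83.0 kb, against 17.2 kb for all coding genes, 32.3 kb for coding genes with any specific peak and 129 kb for the 156 genes with 4 or more cKO-specific and at least 1 cWT-specific peak. A long gene has more room for assigned peaks, and length was not used to adjust any count. The members ranged from Rplp1, a ribosomal stalk protein gene of 1228 bp, to Iqschfp, a gene of 734263 bp. Iqschfp and Schip1 share an end, and the tie was given to Iqschfp.

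The member peaks lay mostly within genes and away from gene ends. Of the 584, 380 had their midpoint inside the gene they were assigned to (65.1%, exact Clopper-Pearson 95% interval 61.0 to 68.9), 23 inside another coding gene (3.94%, 2.51 to 5.85) and 181 outside coding genes (31.0%, 27.3 to 34.9). In the other 8031 peaks of the cKO list 50.3% lay inside their own gene, and in the 790 cKO-specific peaks of the 156 genes that also had a cWT-specific peak 67.0% did. The 8031 include peaks over 100 kb from any coding gene end, which have no assigned gene and cannot count as inside it. Of the 5767 among them with an assigned gene of known strand, 55.3% lay inside that gene. Within 1000 bp of either end of a coding gene there were 33 member peaks (5.65%, 3.92 to 7.84), against 14.3% of the other cKO-specific peaks (13.5 to 15.1) and 3.92% (2.68 to 5.52) of those 790. Of the 7315 other cKO-specific peaks that had an assigned gene, 15.7% lay there. The share at gene ends was thus below that of the list at large and overlapped in its interval with that of genes that also had many cKO-specific peaks. The rule assigns peaks by distance and favours long genes, so these shares were not tested.

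**Figure D2:**
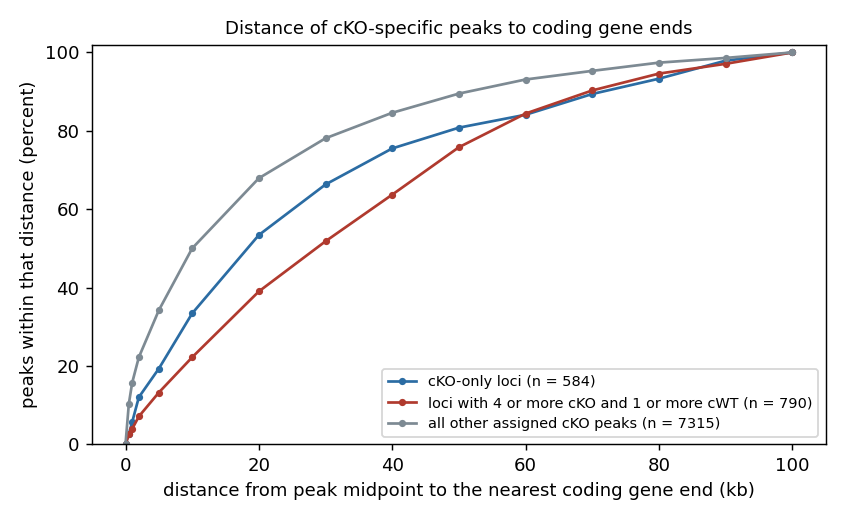
Cumulative percent of cKO-specific peaks (vertical axis) whose midpoint lies within a given distance in kb of the nearest coding gene end (horizontal axis), for the 584 peaks of the cKO-only loci, the 790 peaks of genes with 4 or more cKO-specific and 1 or more cWT-specific peaks, and all 7315 assigned cKO-specific peaks outside the cKO-only loci, which include the 790. The curve of the cKO-only loci lies between the other curves up to 50 kb, with median distances of 18248.5 bp for the cKO-only loci and 28310 bp for the 790.

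Strand was known for 99 of the genes, with 453 peaks. Of these, 296 lay inside the gene (65.3%), 92 upstream of it (20.3%, 16.7 to 24.3) and 65 downstream (14.3%, 11.3 to 17.9), and 261 (57.6%, 52.9 to 62.2) were nearer its start than its finish. Within 1000 bp of the start lay 17 (3.75%) and within 1000 bp of the finish 10 (2.21%). In the whole cKO list, among peaks with a known strand, 26.2% lay upstream, 58.6% nearer the start and 11.5% within 1000 bp of the start. For the 156 genes that also had a cWT-specific peak these shares were 20.4%, 53.7% and 2.88%. The low share at starts was thus found in those genes too and is not particular to the cKO-only loci.

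Pip4k2a, which encodes a kinase that makes the membrane lipid phosphatidylinositol bisphosphate, had the most peaks, 10. They spanned 244 kb of chromosome 2, from chr2:18816092-18816399 to chr2:19059351-19059633 (mm10). The authors' signal, which has no stated scale, was 23.5 and 17.7 in the pair beyond the gene's finish, from 7.77 to 19.8 in the 6 inside it, and 8.04 and 10.3 in the pair upstream. The strongest of the 10 was thus 26010 bp beyond the finish and none lay within 1000 bp of an end. The authors' p-values ran from 0.565 to 0.962. No cWT-specific peak came nearer to them than 257618 bp.

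Lrch1, which encodes a leucine-rich repeat protein, had 9, with 8 inside the gene and 1 upstream of it at 29125 bp. The signal was 16.4 in an adjoining pair at chr14:74764299-74764482 and chr14:74764483-74764677, then 11.6, 19.4, 7.66, 38.4, 29.9, 16.5 and 11.8 in rising order of position. The peak with signal 38.4, at chr14:74888673-74888857, was 59243 bp from the nearer end and was among the 5 strongest of all member peaks by signal. Its authors' p-value was 0.944, above the median of 0.823 over the member peaks. The nearest cWT-specific peak lay 1217044 bp away, the farthest among the loci with 6 or more peaks. Lcp1, the gene of the actin-bundling protein L-plastin of leukocytes, lies on the same stretch of chromosome 14 and had 4 peaks from chr14:75136502-75137023 to chr14:75195559-75195938, with signals of 15.8, 7.49, 7.12 and 24.5. Its nearest cWT-specific peak lay 998338 bp away, and this neighbour of Lrch1 was chosen after its values were seen.

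Rreb1, a zinc finger transcription factor that binds Ras-responsive elements, had 8 over 196 kb. An adjoining pair upstream of the gene, at chr13:37751177-37751557 and chr13:37751558-37751855, had the highest signal of the locus, 24.7 in both. The 6 peaks inside the gene had signals of 17.8, 21.3, 13.9, 12, 16.6 and 17.8. The peaks of this locus were therefore stronger upstream of the start than within the gene.

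Nf1, Srcin1 and Tmem44 had 7 each. Nf1 encodes neurofibromin, a protein that switches Ras off. Its peaks formed a group of 3 upstream, 32371 to 33720 bp from the start with signals of 17.7, 7.38 and 14.0, a single one inside the gene (15.3) and a group of 3 also inside it, near its finish (20.7, 20.7 and 13.1). Srcin1, whose product restrains the kinase Src, had 6 inside the gene and 1 at 620 bp from an end, within 64.6 kb and with signals from 11.1 to 22.9. At Srcin1, 7 of the 8 peaks numbered in the cKO calls over that stretch were specific. Tmem44, a membrane protein gene, had 7 of 9, within 41.7 kb and with signals from 7.11 to 18.3.

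**Figure D3:**
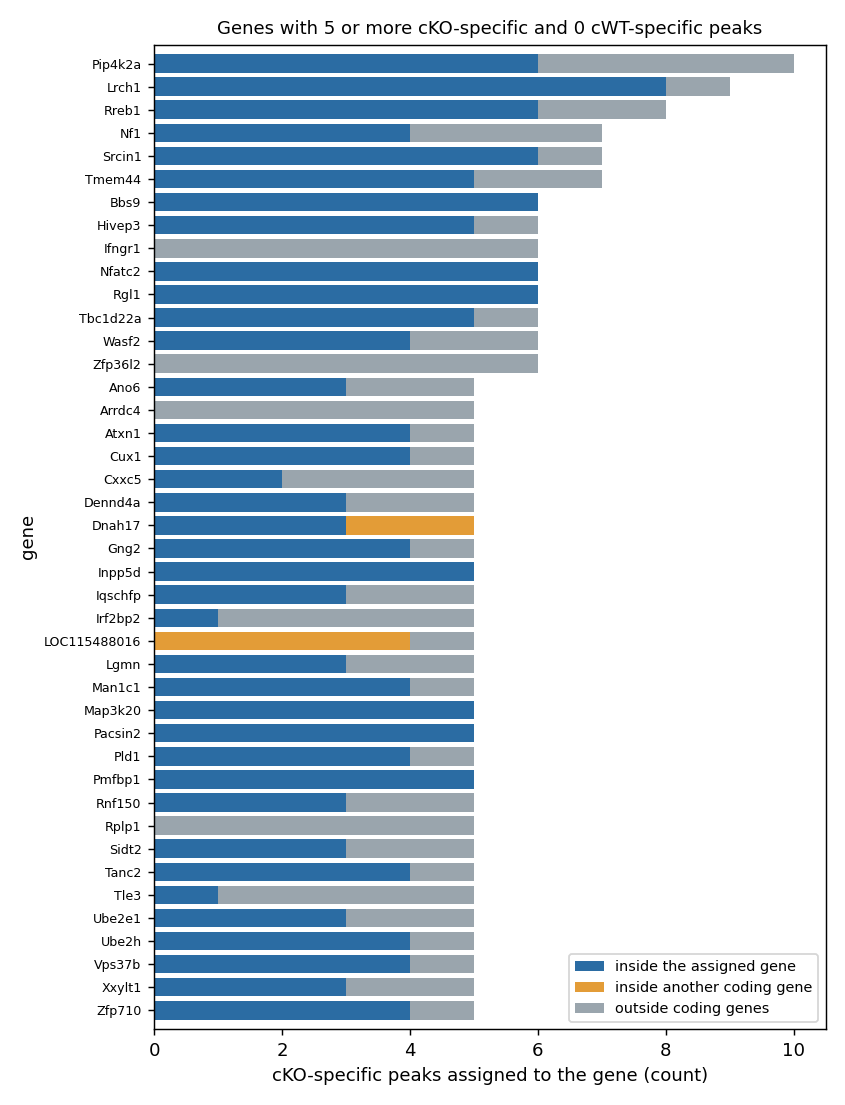
Number of cKO-specific peaks (horizontal axis, count) assigned to each of the 42 genes with 5 or more of them and 0 cWT-specific peaks (vertical axis), split by whether the midpoint lies inside the assigned gene (blue), inside another coding gene (orange) or outside coding genes (grey). Pip4k2a leads with 10, and Ifngr1, Zfp36l2, Arrdc4 and Rplp1 have all their peaks outside coding genes.

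The 8 genes with 6 peaks differed in where these lay. Those of Bbs9, a gene of the BBSome of cilia, Nfatc2, a calcineurin-dependent transcription factor, and Rgl1, an exchange factor for Ral GTPases, were all inside the gene. The Nfatc2 peaks had signals of 26.2, 14.7, 27.8, 13.6, 14.8 and 17.0 by position, and the first lay 1803 bp from the finish. Those of Hivep3, a zinc finger protein gene, and Tbc1d22a, of the Rab GTPase-activating family, lay inside in 5 of 6 cases. Wasf2, which encodes the actin regulator WAVE2, had 4 inside and 2 beyond the finish, at 719 and 1611 bp.

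The other 2 genes with 6 peaks, Ifngr1 and Zfp36l2, had none inside. Ifngr1 encodes the ligand-binding chain of the interferon-gamma receptor, and its peaks all lay upstream. By position they had signals of 20.3, 8.69, 26.8, 26.8, 23.2 and 29.8, and the strongest, chr10:19570044-19570838, was the nearest to the gene at 21509 bp. The farthest was 99969 bp away, at the limit of the assignment. With assignment limited to 50 kb, 2 of the 6 would still count, since the other 4 lay 85351 bp or more from the gene. Zfp36l2 encodes a protein that binds AU-rich elements and promotes mRNA decay, and its peaks lay 42696 to 88633 bp from it with signals from 7.64 to 23.1.

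**Figure D4:**
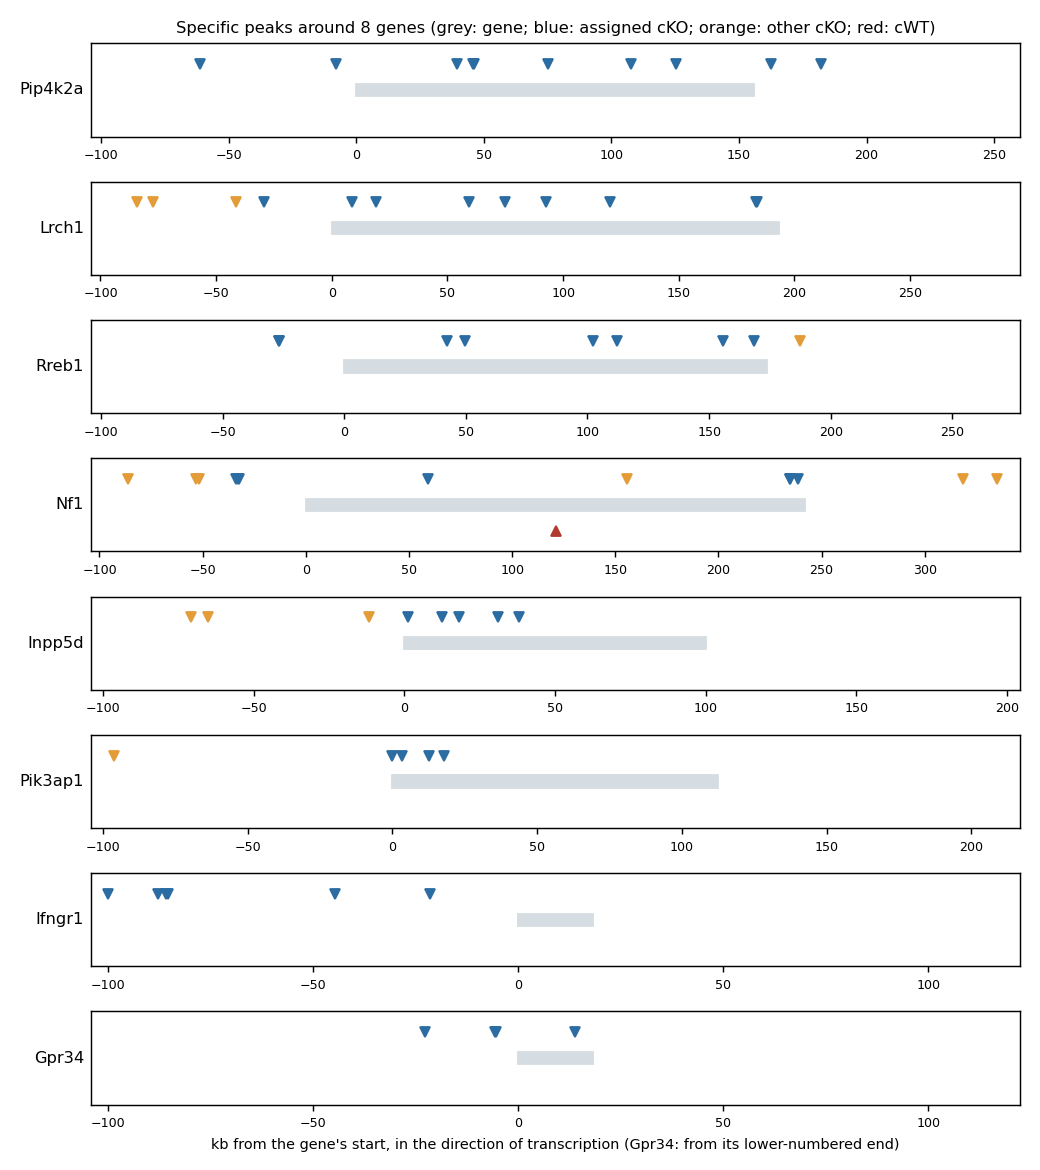
Positions of genotype-specific peaks around 8 of the genes, in kb from the gene's start in the direction of transcription (horizontal axis; for Gpr34 from its lower-numbered end, since its strand was not in the table used), with the gene as a grey bar, its assigned cKO-specific peaks in blue, cKO-specific peaks assigned to other genes in orange and cWT-specific peaks in red. The 6 peaks of Ifngr1 all lie upstream, those of Inpp5d lie in the first 40 kb of the gene, and a cWT-specific peak assigned to another gene lies inside Nf1.

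Among cell-surface receptors, Gpr34, a lysophosphatidylserine receptor of homeostatic microglia, was the only one of 33 listed homeostatic genes to meet the rule. At least 1 peak of the cKO list belonged to 25 of the 33 (75.8%), against 22.5% of all coding genes (4919 of 21887) and 52.0% of the genes of all lists. Itgam (5 cKO-specific and 1 cWT-specific), Itgb5 (6 and 1) and Entpd1 (4 and 1) missed the rule by 1 cWT-specific peak. All 4 Gpr34 peaks lay within the span of Cask, which overlaps Gpr34. The 3 outside Gpr34 had signals of 18.3, 20.2 and 20.2, and the latter pair adjoined. The fourth, chrX:13636287-13636723, lay inside both genes with a signal of 14.5. Lrp1, a large endocytic receptor for lipoproteins and debris, had 4 inside the gene, of which chr10:127537998-127538411 was 47 bp from its finish, with signals close to each other at 15.0, 14.0, 15.1 and 17.4. Itgav, the integrin chain that takes part in the activation of latent TGF-beta, had 1 upstream at 16408 bp (signal 16.3) and 3 inside (11.9, 16.9 and 18.2). Cadm1, an adhesion molecule the only member among 36 listed genes of disease-associated microglia, had its strongest peak 824 bp from an end (signal 34.9) and 3 deeper in the gene (12.1, 10.6 and 17.1).

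Genes of phosphoinositide metabolism and PI3K signalling, the lipids that recruit kinases to the membrane below receptors, gave 4 members of 78. Besides Pip4k2a these were Inpp5d, Pik3ap1 and Pik3r6, and 40 of the 78 (51.3%, against 22.5% of all coding genes) had at least 1 cKO-specific peak. Over all the lists together 529 of 1017 coding genes (52.0%) had one, so this list did not stand out. Inpp5d encodes SHIP1, the inositol phosphatase that degrades PIP3 in blood cells and microglia. Its 5 peaks all lay in the gene within 37.5 kb, 1074, 12544, 17991, 31192 and 37930 bp from its start, with signals of 20.7, 19.9, 10.7, 22.1 and 15.6. Pik3ap1 encodes BCAP, an adaptor that links receptors to PI3K. The peak over its start, chr19:41384970-41385579, had a signal of 35.6 and a p-value of 0.0516, against 6.84, 13.6 and 11 for the 3 inside the gene. Pik3r6, a regulatory subunit of PI3K gamma, had 15.2, 15.2, 9.26 and 22.3, all inside the gene. Pitpnc1 (5 and 1) and Pik3r5 (5 and 2) were among those kept out by cWT-specific peaks.

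In the cytoskeleton and small GTPase list 7 of 164 genes met the rule, among them Lrch1, Rgl1, Wasf2, Vav2, Arhgap5 and Arhgap12. At least 1 cKO-specific peak belonged to 103 (62.8%), against 22.5% of all coding genes and 52.0% of the genes of all lists. Vav2, an exchange factor for small GTPases, had signals of 14.0, 9.88, 17.3 and 12.9, all inside the gene. Arhgap5 and Arhgap12, which switch small GTPases off, had 1 inside and 3 outside each, over 202 and 210 kb. The locus with the most cKO-specific peaks in the whole list, Sh3pxd2a, is a member of this gene list with 12 and was kept out by 3 cWT-specific peaks. The phagocytosis list overlaps this one through Vav2 and Wasf2 and gave 4 of 63, with Lrp1 and Abca1 as the others. At least 1 cKO-specific peak belonged to 40 of the 63 (63.5%).

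Transcription factors and chromatin proteins were spread over 3 lists. Lineage factors gave 3 of 50, Rreb1, Nfatc2 and Nfatc1. Nfatc1, on chromosome 18, had 2 inside and 2 outside the gene with signals of 26.4, 13.8, 10.5 and 10.5. Runx1 (7 and 1), Smad3 (6 and 2), Irf8 (6 and 3), Etv6 (8 and 3) and Klf12 (4 and 2) reached 4 cKO-specific peaks and had cWT-specific ones as well. The bZIP list gave 1 of 34, Jdp2, a Jun dimerisation partner, with a signal of 32.1 in the peak 8567 bp beyond its finish and of 22.7 in the one 295 bp before its start. The chromatin list gave 6 of 150. Tle3, a Groucho-family corepressor, had 5 with signals of 28.4, 20.7, 29.4, 15.2 and 16.8, of which the first lay 94671 bp upstream. Arid5b, a DNA-binding protein, had 4 inside (17.0, 20.2, 28.0 and 16.8), Hdac4, a histone deacetylase, 3 inside (10.6, 9.44 and 16.6) and 1 upstream (25.2), and Mxi1, a MAX partner that opposes MYC, 3 inside (7.42, 9.54 and 17.4) and 1 upstream (33.1). Hivep3 and Zfp36l2 were the others. At least 1 cKO-specific peak belonged to 35 of the 50 lineage genes (70.0%), 15 of the 34 bZIP genes (44.1%) and 77 of the 150 chromatin genes (51.3%). This compares with 22.5% of all coding genes and 52.0% of the genes of all lists. The rule was met by 0.589% of all coding genes, and nothing is read from these counts.

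The remaining lists gave 1 member each, 2 or none. Lgmn, the lysosomal protease legumain, was 1 of 29 antigen presentation genes, and its peaks upstream of the start (signals 21.5 and 19.9, p-values 0.196 and 0.153) were stronger than those inside the gene (7.96, 8.84 and 13.2). Tab2, an adaptor of the kinase TAK1, was 1 of 64 Toll-like receptor and NF-kB genes and had signals of 12.2, 15.0, 15.0 and 10.2, all outside the gene. Ifngr1 was 1 of 53 in the interferon receptor and JAK-STAT list, Ccnd2, which encodes cyclin D2, was 1 of 48 cell cycle genes (16.1, 16.4, 7.15 and 14.9), and Itgav was 1 of 64 in the TGF-beta and Wnt list. Abca1, the cholesterol exporter, and Lrp1 were 2 of 54 lipid genes; the Abca1 signals were 14.1, 19.6, 28.3 and 18.1, the third of them 1029 bp from the start. No gene of the lists of inflammatory cytokines (0 of 41) or reported miR-137 targets (0 of 28) met the rule. The rule was also met by 0 of 22 neuronal, 0 of 16 astrocyte, 0 of 17 oligodendrocyte, 0 of 16 vascular and 0 of 25 other leukocyte marker genes. Cdk6 among the targets (8 cKO-specific and 1 cWT-specific), Celf4 among the neuronal genes (5 and 1) and Slc1a3 among the astrocyte genes (4 and 2) were kept out by cWT-specific peaks. Since only 0.589% of all coding genes met the rule, nothing is read from a count of 0 in lists of this length. In all, 30 of 1017 listed coding genes met it (2.95%), against 0.589% of all coding genes, but the lists were made for this tissue with earlier results known and nothing is read from that difference.

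The labelled cell type can be checked only through specific peaks. Of 10 markers that define microglia, 7 had a cKO-specific peak, among them Gpr34 with 4, and 2 a cWT-specific one, while Cx3cr1, Csf1r and Aif1 had no specific peak of either genotype. Markers of other cells were not absent from the lists. The cKO list had a peak at 1 of 3 markers of neurons, 2 of 3 of astrocytes, 2 of 3 of oligodendrocytes, 2 of 3 of endothelium and 1 of 4 of other leukocytes, and the cWT list at 1, 0, 1, 1 and 2 of them. Of all 21887 coding genes, 4919 had a cKO-specific peak and 2500 a cWT-specific one. The lists differ in length, so the marker counts of the genotypes are not compared. Over the longer lists, the cKO list had a peak at 4 of 22 neuronal genes (18.2%), 6 of 16 astrocyte genes (37.5%), 6 of 17 oligodendrocyte genes (35.3%), 7 of 16 vascular genes (43.8%) and 9 of 25 genes of other leukocytes (36.0%), against 22.5% of all coding genes. A peak in a genotype-specific list does not measure how open the gene was in the libraries, and the part of other cells in these loci was not tested.

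Of the loci taken whole, 36 had every peak inside the assigned gene and 15 had none there. Peaks of the second kind were all outside coding genes at 13 loci, among them Ifngr1, Zfp36l2, Arrdc4, Rplp1, Acpp, Ak4, Osbp, Peli1, Spring1, Tab2, Tnfsf8 and Zbtb18. At Fam72a all 4 lay inside Srgap2, a gene of membrane remodelling, with signals of 22.1, 9.36, 16.1 and 21.8, and at LOC115488016 4 of 5 lay inside Prkch, a protein kinase C gene, with signals of 15.6, 5.72, 16.5 and 12.1. Fam72a is 12438 bp long and LOC115488016 1458 bp, and their ends were nearer to these peaks than the ends of the host genes. All 4 peaks of Fbxl14 lay in the span of Wnt5b, 1 of them inside Fbxl14 too, and all 4 of Rassf5 in that of Eif2d, 2 of them inside Rassf5 too. Other host genes held 2 peaks of Dnah17 (in Pgs1), 2 of Arsg (in Slc16a6), 2 of Iqcd (in Tpcn1) and 1 of 0610040J01Rik (in Rell1). Tle3 and Rplp1 were direct neighbours among coding genes.

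From the first to the last peak they spanned a median of 66.8 kb. The tightest were Edem2, a gene of the degradation of misfolded glycoproteins, with 4 peaks in 5998 bp, Rassf5 in 8065 bp, Osbp, an oxysterol-binding protein gene, in 8070 bp, Capn11, a calpain gene, in 10966 bp and Nceh1, a cholesterol ester hydrolase gene, in 11185 bp. The widest were Hivep3 over 409985 bp, Atxn1, the ataxin-1 gene, over 405432 bp, Babam2 over 358380 bp, Tanc2 over 349404 bp and Cux1, a homeobox factor gene, over 315182 bp. Within these spans lay 2 cWT-specific peaks at Hivep3, 4 at Cux1 and 1 at Babam2, and none at Atxn1 or Tanc2. At the Edem2 locus the signals were 21.3, 21.3, 12.3 and 15.3 and all lay inside the gene, while the Osbp peaks (18.9, 22.9, 22.9 and 8.35) all lay 11541 to 19305 bp beyond the gene.

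The peak names carry numbers that rise along each chromosome, read here as places in the full cKO calls, and they give how many called peaks lay between the specific ones. In a median locus 66.7% of the numbered peaks from first to last were specific, from 25% at Abca1, with 4 of 16, to 100% at 25 loci whose peaks had consecutive numbers. In the whole numbering 25.8% were specific, but both ends of each stretch are specific by construction and the loci were picked for many specific peaks, so no clustering is read from this. The largest of these 25, with 5 peaks each, were Pacsin2 (32.4 kb), Pmfbp1 (63.3 kb) and Rplp1 (21.4 kb), and at Tmem44 the first 6 of 7 peaks had consecutive numbers. Pip4k2a had 10 of 22 and Lrch1 9 of 20, so called peaks that were not specific lay among those of the leading loci.

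**Figure D5:**
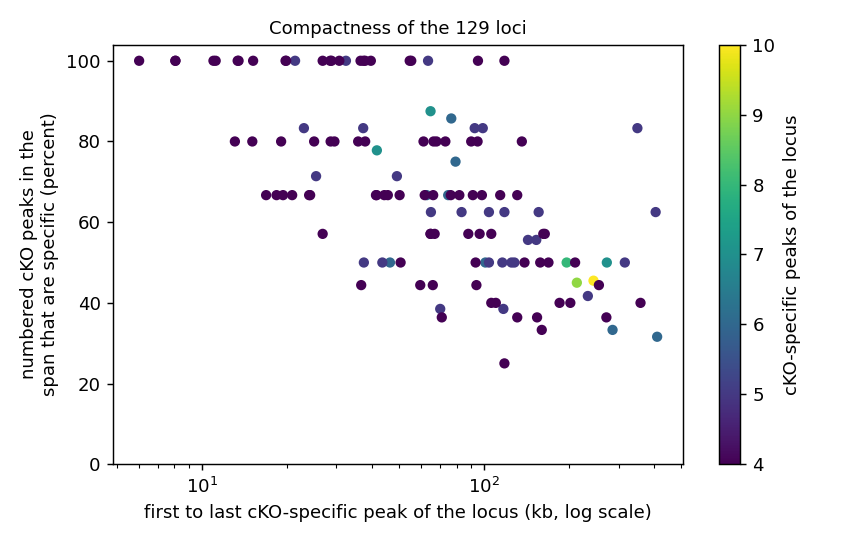
Percent of the numbered cKO peaks between the first and last specific peak of a locus that are specific (vertical axis), against the distance from the first to the last in kb on a log scale (horizontal axis), 1 point per locus for the 129 loci and coloured by its number of cKO-specific peaks. Points at 100% are the 25 loci with consecutive numbers, and most loci beyond 200 kb lie at 50% or below.

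Some listed peaks may be pieces of 1 region. In 34 loci there were 37 pairs of peaks with no base between them, and both peaks had the same authors' signal in all 37. Such pairs hold 74 of the 584 peaks (12.7%), against 5.73% of the cKO list. A split region counts as 2 towards the threshold of 4, so the rule favours loci that contain one. When adjoining peaks were counted once, 105 of the 129 loci still had 4 or more regions, and when peaks within 500 bp were joined 86 did. Tnfsf8, a TNF-family ligand gene, and Arsg, a sulfatase gene, were left with 2 regions when adjoining peaks were joined.

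Most loci had no peak at an end of the assigned gene. None lay within 1000 bp of an end at 100 loci, 1 did at 25 and 2 did at 4. At Kif3b, a kinesin-2 motor gene, 1 was 117 bp inside the start (signal 26.1) and 1 was 896 bp from the finish (10.9). At Rcc2, a regulator of chromosome condensation family gene, both flanked the start, at 38 bp (9.74) and 360 bp (13.9). The strongest member peak of all, with a signal of 41.5, lay deeper in Rcc2, 9695 bp from its finish at chr4:140713264-140713788. At Heca an adjoining pair lay inside the start at 687 and 960 bp (14.1 in both), and at Alox12, the platelet 12-lipoxygenase gene, peaks lay 279 and 919 bp inside the start (18.9 and 14.3).

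The width, signal and p-value are the authors' own values, and their medians lay close to those of the rest of the list. Their median width was 297 bp (117 to 1037), against 315 bp in the other cKO-specific peaks. The median signal was 16.0 (5.53 to 41.5), against 16.6, and the median p-value 0.823 (0.0301 to 0.992), against 0.817. Of the members 57 (9.76%, 7.48 to 12.5) had a p-value up to 0.5, against 12.3% of the other cKO-specific peaks (11.6 to 13). The lowest adjusted p-value the authors gave was 0.441 among the members and 0.194 in the whole cKO list. No source used here says what they test, and none of the members would pass a limit of 0.05 after adjustment. The lowest belonged to Ywhaz, a 14-3-3 protein gene, at 0.0301 (chr15:36793457-36794438, inside the gene, signal 23.6), followed by the start of Pik3ap1 at 0.0516, Wdr20 at 0.0846, 0610040J01Rik at 0.105 and Gab1, a docking protein of receptor kinases, at 0.129. The 3 other Ywhaz peaks had p-values of 0.864, 0.94 and 0.946, so the locus rested on 1 peak by this measure. The strongest signals after Rcc2 were 41.3 in both of a close pair inside Chrna9, an acetylcholine receptor subunit gene, 38.7 at Wdr20 and 38.4 at Lrch1.

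Peaks of the cWT list lay at some distance from all members. None was within 10 kb of a member peak, and the nearest was 14752 bp away, at Iqcd. It was within 20 kb at 3 further loci, Cux1 (14930 bp), Plxna4 (17182 bp) and Lonrf1 (18741 bp), and the median over the loci was 127486 bp. At 15 loci it lay beyond 500 kb, with Trim7 (1405440 bp), Lrch1 (1217044 bp) and Ak4 (1166292 bp) as the farthest. The rule barred only cWT-specific peaks that were assigned to these genes, and the distances follow in part from it.

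An assigned count of 0 did not always mean a gene free of cWT-specific peaks. The midpoints of 12 cWT-specific peaks lay inside 8 of the genes, either nearer the end of another gene or over 100 kb from any gene end. Cux1 held 4 of them, Hivep3 2, and Nf1, Babam2, Cadm1, Plxna4, Ube2e1 and Arhgap23 1 each. In Nf1 the cWT-specific peak chr11:79460880-79461335 (signal 11.3) lay between cKO-specific ones, nearer to Omg, a gene nested in an Nf1 intron. Among the genes with 2, Hivep3 had cWT-specific signals of 24.4 and 21.8, above all of its cKO-specific ones, the highest of which was 16.0, though the lists may not share a scale. Without these 8 genes 121 loci remain. Within 100 kb of the gene there was a cWT-specific peak at 51 loci and none at 78, and the nearest to a gene that held none was 2056 bp away, at Wdr20.

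Member loci were found on all autosomes and on the X chromosome. Chromosome 11 had the most, 14 with 64 peaks, or 8.86% of its 722 cKO-specific peaks, and chromosomes 7 and 13 had 2 each. As a share of the cKO-specific peaks of the chromosome, member peaks ranged from 2.0% on chromosome 7 to 12.4% on chromosome 14, and 4 peaks of Gpr34 were the only ones on the X chromosome.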

How the data were processed

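Peaks came from 2 headerless lists, 1 per genotype, with positions on mm10. The submitters' processing notes name the tools HOMER 4.11, MACS2 2.2.7.1 and Bowtie2 2.4.4 and the build GRCm38 (mm10). Not given in the sources used here are the step of each tool, the combining of replicates, any transposase shift and the choice of specific peaks. The authors deposited for each peak a score (1 to 930), a signal without a stated scale, and a p-value in raw and adjusted form, and the reading of these columns rests on their layout. Libraries were grouped by genotype label. Genes came from a RefSeq table of GRCm38.p6 with 21887 coding genes outside the mitochondrion; each peak went by its midpoint to the gene with the nearest end within 100 kb, which placed 11013 of 12105 peaks. No test was made, since the rule used both lists and no value per library was given. Shares have exact 95% intervals, which treat peaks as independent. The members and the 21 gene lists were chosen with earlier results of these data known. Genes were named if they had at least 6 peaks, stood on a list, had one of the 5 smallest or largest spans, 5 lowest p-values or 5 highest signals, 2 peaks at gene ends or a neighbouring member locus; hosts, genes just outside the rule, genes near or far from cWT-specific peaks and genes with a covered promoter follow from the comparisons that name them, and any other gene was picked with its values known. Results of some genes that this names are not reported here. The assignment was checked on simulated peaks. Python 3.11.15, numpy 2.4.6, pandas 2.3.3, scipy 1.17.1 and matplotlib 3.10.9 were used.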

Additional observations from a re-analysis of the deposited data

How the results depend on the processing

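The number of loci (129, with 584 peaks) stayed within 1.5 times under 8 of 14 alternatives. It fell to 15 loci with 63 peaks when assignment was limited to 10 kb (11 of them shared), to 42 with 236 at 5 or more peaks, to 35 with 150 among peaks at or above the list's median score (20 shared) and to 74 with 334 at p-values up to 0.9 (50 shared). It was 84 with 388 when no cWT-specific midpoint was allowed within 100 kb of either gene end, and 358 with 1271 at 3 or more peaks. With all annotated genes as candidates there were 91 loci, 51 of them shared. The share of peaks within 1000 bp of a gene end (5.65%) was 12.7% at 10 kb, 8.5% at 3 or more peaks and 2.67% at or above the median score, and 15.1% lay within 3000 bp. The share inside the assigned gene (65.1%) was 69.2% with peaks within 500 bp merged and 60.4% at 3 or more peaks. The median width (297 bp) was 331 bp after merging. Of these alternatives, giving ties to the other gene (129 loci, 128 shared) and barring cWT-specific midpoints inside the gene (121 loci) were chosen after seeing the data. Lowering the p-value limit or raising the score drops cWT-specific peaks too, so loci can enter as well as leave. Motifs inside the peaks were planned and not run, because no genome sequence was used here. No paired analysis was possible because the lists hold no value per library, and depth per library is unknown.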
